A study of Homo sapiens with 8 samples.

Results

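Exons of at least 28 and under 400 nucleotides that lie between 2 introns of at least 10000 nucleotides each were examined for their use with and without emetine in 2 human cell lines. The unit was a skipped-exon event, which is a middle exon with 1 exon before it and 1 after it. An event belonged to the set where the middle exon had that length and both stretches between it and its neighbours had at least that length, and no measured value entered the choice. In the table of MCF10A, 8310 of 82355 events met the rule (5365 exons of 2509 genes), and in that of HMLE TWIST 9107 of 98244 did (5713 exons of 2656 genes). Every library of the line had at least 20 reads over the 2 forms of the event for 5869 of these events in MCF10A (4013 exons, 1928 genes). In HMLE TWIST the number was 6272 (4184 exons, 2006 genes), and the description keeps to these events. MCF10A is an established non-tumorigenic line of breast epithelium. HMLE TWIST (HMLE-TWIST in part of the labels) are immortalised breast epithelial cells with a retroviral pBabe-TWIST construct, and their controls carry the construct too, so TWIST itself was not varied within the line. The cells were treated for 24 hours with emetine at 10 µM or with DMSO, with 2 libraries per group and 8 in all. The labels do not say whether the 2 libraries of a group came from separate cultures, so the spread between them may be technical. The p-values of the main test rest on the read counts and on a spread that is largely shared across events. They do not measure the spread of each event alone.

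Most human exons are short and most introns are long, and the splicing machinery is thought to recognise such an exon as a unit, with factors bound at its 2 ends before the introns are removed. Exons between long introns depend on this recognition across the exon, and they are a usual place for exons that are skipped in part of the transcripts. Emetine is an alkaloid that blocks translation on the ribosome. The study concerns compounds that change splicing through G-quadruplexes, structures that form in RNA with several runs of guanine.

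The sequences of 10 exons are shown first because the comparisons below turn on them, and runs of 3 or more G are in capitals. The letters come from GENCODE 29 transcripts with the same gene, exon length and flanking intron length, and read 5′ to 3′. The first 3 exons rose and the next 4 fell under emetine in both lines, and the last 3 responded differently in the lines. Exons that are untranslated, part coding or decay targets in any matched transcript were left out, and these classes are explained below. The largest changes among the rest are shown, so the decay targets among the shared rises are absent.
H2AFY: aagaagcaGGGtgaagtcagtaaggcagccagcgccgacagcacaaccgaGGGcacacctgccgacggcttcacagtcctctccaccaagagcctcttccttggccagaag
RP13-672B3.2: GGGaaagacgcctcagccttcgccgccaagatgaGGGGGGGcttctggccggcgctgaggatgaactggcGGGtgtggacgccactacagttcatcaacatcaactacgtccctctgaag
SUZ12P1: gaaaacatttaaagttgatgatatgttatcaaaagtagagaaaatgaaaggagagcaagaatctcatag
PEX7: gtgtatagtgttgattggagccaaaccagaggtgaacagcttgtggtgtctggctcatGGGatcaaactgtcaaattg
ATP9B: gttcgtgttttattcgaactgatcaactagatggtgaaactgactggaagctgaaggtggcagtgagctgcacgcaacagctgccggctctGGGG
SRBD1: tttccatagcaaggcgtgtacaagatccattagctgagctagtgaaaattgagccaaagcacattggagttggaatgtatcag
CASC4: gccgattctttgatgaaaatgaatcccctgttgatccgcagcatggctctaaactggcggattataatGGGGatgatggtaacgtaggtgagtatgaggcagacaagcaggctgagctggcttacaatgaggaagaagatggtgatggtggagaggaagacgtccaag
HCG18: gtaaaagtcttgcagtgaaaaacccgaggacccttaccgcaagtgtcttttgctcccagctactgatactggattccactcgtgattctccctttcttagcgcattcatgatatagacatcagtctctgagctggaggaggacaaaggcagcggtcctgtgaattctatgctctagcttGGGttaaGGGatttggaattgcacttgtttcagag
PCNX: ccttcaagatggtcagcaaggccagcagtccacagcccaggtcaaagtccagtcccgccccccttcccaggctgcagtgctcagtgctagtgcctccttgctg
LIMK2: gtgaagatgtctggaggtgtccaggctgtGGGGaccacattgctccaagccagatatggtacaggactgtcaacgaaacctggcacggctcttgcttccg
The exon of H2AFY has 2 such runs, that of RP13-672B3.2 has 3 with a longest run of 7 G, and those of ATP9B, CASC4 and LIMK2 each have 1 run of 4 G. The exons of SUZ12P1, SRBD1 and PCNX have no run of 3 G, so each of the 3 groups shown here held exons with and without such runs. On GRCh37 the exons of H2AFY, SRBD1 and HCG18 lie on the minus strand and the others on the plus strand, and their positions are given with their values.

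Junction reads summed over all events ran from 78412292 to 91259363 per library, where 1 read may serve more than 1 event, and 2266208 to 3026412 of them lay in the events between long introns. The cell type labels were checked against markers. Of 12 epithelial genes, 9 had an event with at least 20 reads in MCF10A and 2 did in HMLE TWIST, where CDH1, the main epithelial cadherin, had at most 7 reads in an event of any library. Of 12 mesenchymal genes, 7 had such an event in MCF10A and 12 in HMLE TWIST. The defining epithelial markers were therefore at or near 0 in HMLE TWIST, and line, construct and this difference in cell state cannot be told apart in any comparison of the lines. These are bulk libraries, in which fewer cells with a form and less of it per cell cannot be told apart.

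The inclusion level is the share of transcripts that hold the middle exon, from 0 to 1, computed from reads over its junctions and corrected for the number of positions each form offers. The exons between long introns were included in nearly all transcripts. The median level over the 5869 MCF10A events was 0.996 in each of the DMSO libraries, and 0.990 and 0.991 in the emetine libraries. In the 6272 HMLE TWIST events it was 0.997 and 0.996 with DMSO and 0.991 and 0.991 with emetine. The mean control level lay over 0.9 for 83.0% of the events in MCF10A and 83.9% in HMLE TWIST, against 81.3% and 83.3% of all events with enough reads. Levels under 0.1 were found for 7.46% and 6.95%, against 9.75% and 8.31% of all events. The median emetine change was -0.00186 in MCF10A and -0.00168 in HMLE TWIST, with the quartiles of the events at -0.0108 and 0.00826 and at -0.0116 and 0.00858. Leaving out either emetine library brought that median to 0 in both lines.

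An event was tested where the rarer form had at least 10 reads over the libraries of the line, which 1981 of the 5869 events reached in MCF10A (33.8%). In HMLE TWIST 2102 of the 6272 did (33.5%). Those not tested were nearly always included or nearly always skipped. Calls needed an adjusted p under 0.05 in a quasi-binomial test together with a level that moved by at least 0.1. In MCF10A 201 events changed (10.1% of those tested, 181 exons of 156 genes), against 13.4% of all 25522 events tested in that table. Of them 129 rose and 72 fell, which is 6.51% and 3.63% of the events tested, against 8.12% and 5.32% of all events. In HMLE TWIST 216 events changed (10.3%, 195 exons of 164 genes), against 14.5% of all 30290 events. There 110 rose and 106 fell, 5.23% and 5.04% of those tested, against 6.35% and 8.15% of all events. The median rise was 0.189 in MCF10A and 0.179 in HMLE TWIST, and the median falls were -0.164 and -0.184. The SD between replicates of the changed events had a median of 0.0202 with DMSO and 0.0287 with emetine in MCF10A, and of 0.0216 and 0.0271 in HMLE TWIST.

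The share of rises moved with the length correction of the level. With the inclusion reads simply divided by all reads of the event, 146 events rose and 47 fell in MCF10A (75.6% rises in place of 64.2%), and 123 rose and 77 fell in HMLE TWIST (61.5% in place of 50.9%). With limma on the log odds in place of the quasi-binomial test, 102 events changed in MCF10A and 122 in HMLE TWIST. Events tested between long introns were also shallower. The median of the reads in the shallowest library was 179 in MCF10A and 179.5 in HMLE TWIST, against 275 and 273 over all events tested, and the part of depth in the lower shares was not tested.

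Events of the same exon length with other introns were called more often. Where both introns were under 10000 nucleotides, 13.5% of 17958 events changed in MCF10A and 14.8% of 22019 in HMLE TWIST. Where exactly 1 intron reached that length, 13.7% of 4622 and 13.7% of 5062 changed. The difference between these shares has no test, since events of a gene share reads. At the edge of the rule, the events whose shorter intron had 10000 to under 11000 nucleotides changed in 13.4% of 216 tested in MCF10A and 15.3% of 236 in HMLE TWIST, and those with 9000 to under 10000, just outside, in 11.5% of 261 and 11.6% of 268.

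**Figure D1:**
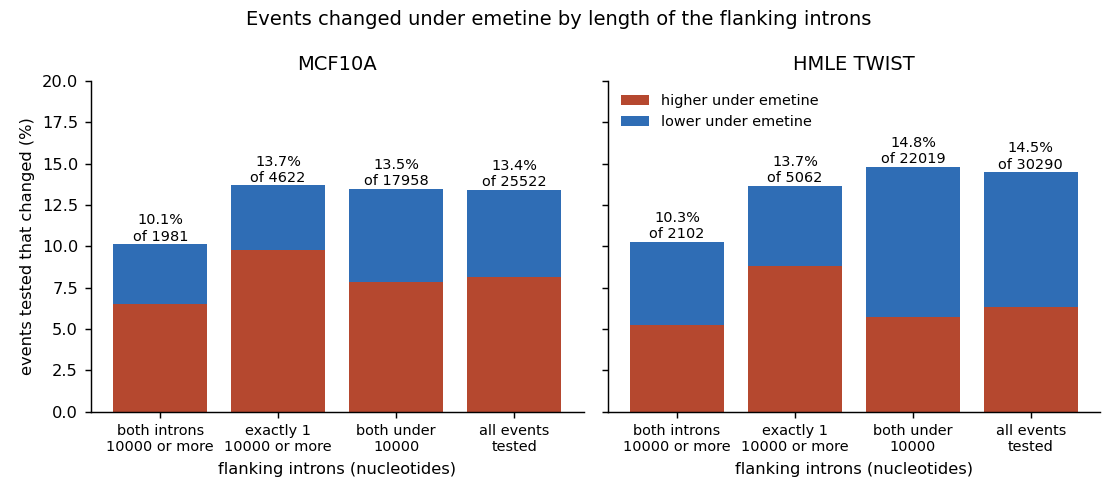
Share of tested events with exons of 28 to under 400 nucleotides, and of all events tested, that changed under emetine (vertical axis, percent), by the length of the flanking introns, for MCF10A (left) and HMLE TWIST (right). Red parts of the bars are rises, blue parts falls, and the number under each percentage is the events tested; the bars for 2 long introns end at 10.1% and 10.3%, below the other bars of each line.

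The direction of the changes went with the starting level. Exons with a control level over 0.9 have no room to rise by 0.1, and those under 0.1 none to fall. In MCF10A 41 of 316 events under 0.1 rose (13%, against 15.4% of all events in that range). Between 0.1 and 0.9, 88 rose and 22 fell of 533 (20.6%, against 30.9%). Over 0.9, 50 of 1132 fell (4.42%, against 5.78%). In HMLE TWIST 23 of 303 events rose in the lowest range (7.59%, against 11.4%). In the middle range 87 rose and 42 fell of 548 (23.5%, against 34.2%), and 64 of 1251 fell in the highest (5.12%, against 8.57%). Each range thus showed a lower share between long introns than over all events, and in the middle range the events were shallower too, with a median of 68 reads in the shallowest library of MCF10A against 95, and 64 against 87.5 in HMLE TWIST.

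Within the set, intron length had no steady relation to the calls. Where the shorter intron had 10000 to under 20000 nucleotides, 10.9% of 1224 events changed in MCF10A and 11.2% of 1288 in HMLE TWIST. From 20000 to under 50000 it was 8.37% of 657 and 8.90% of 697, and from 50000 on 12% of 100 and 8.55% of 117. Exons under 100 nucleotides held most of the falls between long introns, and among the ranges of length they had the highest share of falls over all events too. Of the exons under 100 nucleotides, 53 rose and 44 fell of 845 tested in MCF10A, and 46 rose and 57 fell of 874 in HMLE TWIST. Among those of 100 to under 200, 69 rose and 26 fell of 991, and 53 rose and 42 fell of 1059. Over all events falls made up 6.47% of the exons under 100 nucleotides and 4.34% of the next range in MCF10A. In HMLE TWIST they made up 8.75% and 7.54%. Falls were also more frequent in coding exons whose length is not a multiple of 3, whose skipping shifts the reading frame. Of these 22 rose and 44 fell of 707 in MCF10A, and 18 rose and 58 fell of 841 in HMLE TWIST. Of coding exons with a multiple of 3, 28 rose and 15 fell of 559, and 28 rose and 23 fell of 584. Over all events the split without a multiple of 3 was 262 rises and 695 falls in MCF10A, and 329 rises and 1299 falls in HMLE TWIST. With a multiple of 3 it was 417 rises and 282 falls in MCF10A. In HMLE TWIST it was 438 rises and 516 falls over all events, while the 28 rises and 23 falls between long introns were near even. These were 4.79% and 3.94% of the 584 events, limma also called 18 of them, and the difference from all events was not tested.

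The exons were grouped by their place in matched transcripts, which were found for 98.7% of 8630 events with enough reads in either line. An exon is called coding where a protein-coding transcript translates all of it, and part coding where one translates a part. A decay target is neither and lies in a transcript annotated for nonsense-mediated decay, the pathway that removes transcripts with an early stop codon while they are translated. Untranslated exons lie outside the coding sequence of protein-coding transcripts, and noncoding exons in other transcripts. Rises stood highest among decay targets and noncoding exons. In MCF10A 28 decay targets rose and 1 fell of 152 tested, and 21 noncoding exons rose and 0 fell of 131. The same classes had 18 rises and 8 falls of 146, and 17 rises and 4 falls of 133, in HMLE TWIST. Coding exons fell more often than they rose, with 50 rises and 59 falls of 1266 in MCF10A and 46 rises and 81 falls of 1425 in HMLE TWIST. Untranslated exons had 19 rises and 8 falls of 270, and 18 rises and 10 falls of 222. Part coding exons had 6 rises and 2 falls of 133, and 8 rises and 1 fall of 142. Decay targets and noncoding exons had the highest shares of rises over all events too. Coding exons had 679 rises and 977 falls of 15893 there in MCF10A, and 767 rises and 1815 falls of 20247 in HMLE TWIST. Noncoding exons rose in 15.7% of 1888 and 11.7% of 1967, untranslated exons in 13.8% of 2197 and 11.6% of 2118, and part coding exons in 9.26% of 1458 and 8.55% of 1590. Between long introns the rises of untranslated exons came to 7.04% and 8.11%. Over all events the decay targets had 543 rises and 83 falls of 2862 in MCF10A, and 414 rises and 168 falls of 2977 in HMLE TWIST. The median control level of the tested decay targets between long introns was 0.0356 in MCF10A and 0.0304 in HMLE TWIST, and that of the coding exons was 0.969 in both lines, so class and starting level moved together. An inclusion level is a share of the transcripts present, and whether splicing or the stability of the transcripts differed was not tested.

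**Figure D2:**
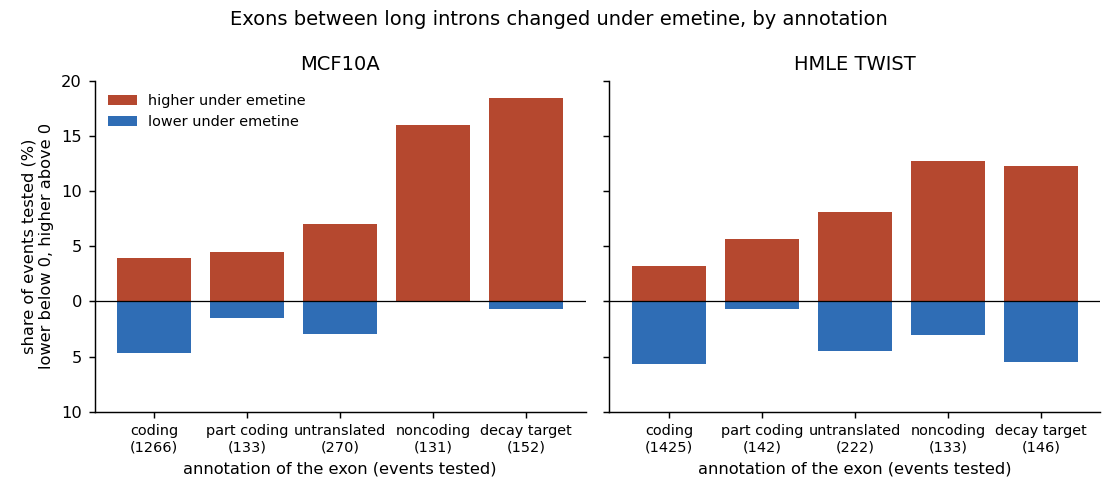
Share of the tested events between long introns that rose (red, above 0) or fell (blue, below 0) under emetine (vertical axis, percent), by annotation of the exon, with the number of events tested in parentheses, for MCF10A (left) and HMLE TWIST (right). Rises reach 18.4% of the decay targets and 16% of the noncoding exons in MCF10A, and 12.3% and 12.8% in HMLE TWIST, while coding exons show 3.95% and 3.23%.

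A flanking intron of the rule is the stretch to the neighbouring exon of the event, and it often held a further exon of the same gene that the event leaves out. Only middle exons of other events of the line were counted as further exons. Annotated exons without such an event were not looked for. In MCF10A this was so for 3962 of the 5869 events (67.5%). In HMLE TWIST it was so for 4370 of the 6272 (69.7%). Where no such exon lay in either intron, 36 events rose and 36 fell of 791 tested in MCF10A (9.10%). In HMLE TWIST 29 rose and 48 fell of 790 (9.75%). Where one did, 93 rose and 36 fell of 1190 in MCF10A (10.8%), and 81 rose and 58 fell of 1312 in HMLE TWIST (10.6%). Events that leave out a further exon thus held 93 of the 129 rises in MCF10A, and they were also 1190 of the 1981 events tested. Rises were 7.82% of these events and 4.55% of the others there. Without these events rises made up 50% of the changes in MCF10A and 37.7% in HMLE TWIST. The same split was not made over all events.

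Of the events between long introns, 1325 were tested in both lines. Emetine changed 164 of them in MCF10A, 163 in HMLE TWIST and 81 in each line (6.11%, against 9.03% of all 19025 events tested in both), which is 49.4% of the former and 49.7% of the latter, against 60.5% and 50.3% over all events. All 81 moved in the same direction in the 2 lines, 48 up and 33 down, and they comprised 75 exons of 68 genes. Over all events 1701 of the 1718 shared changes had the same direction. Decay targets gave 10 of the shared rises and 0 of the shared falls (107 tested in both lines), and noncoding exons gave 7 and 0 (94 tested). Coding exons gave 21 rises and 28 falls (858 tested), and untranslated exons 8 and 3 (169 tested). Among all 1325 events, 974 changed with the same sign in both lines (73.5%), whatever their size. The lines share no library, but the starting level limits the direction in which an event can change, as described above. Events near full inclusion, or near full skipping, in both lines have the same limit in both. How much of the agreement in direction goes with the starting level was not tested. No share over all events is given for the 73.5% or for the shared counts by annotation.

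**Figure D3:**
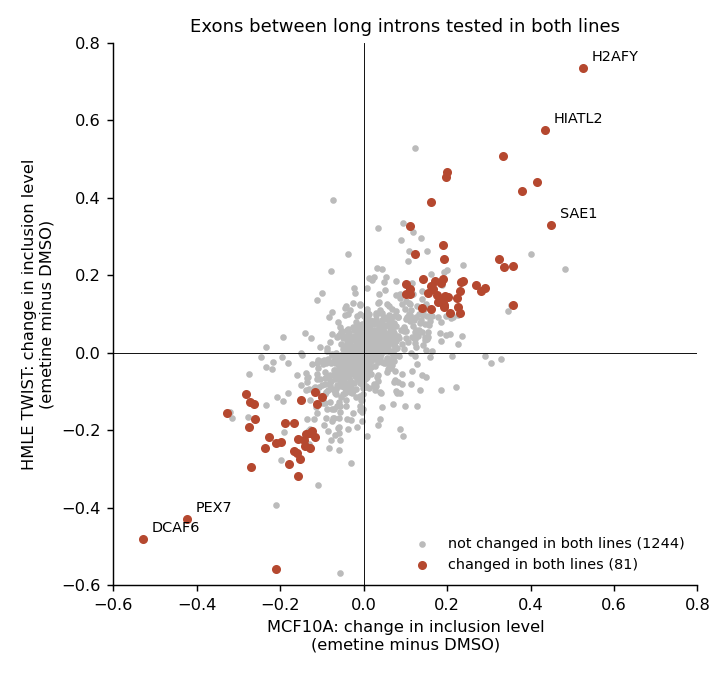
Change in inclusion level (emetine minus DMSO) in MCF10A (horizontal axis) and in HMLE TWIST (vertical axis) of the 1325 events between long introns tested in both lines, 1 point per event. Red points are the 81 events that changed in both lines, all with the same sign on both axes; gray points are the other 1244.

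Exons are named by size of change, with 1 event per exon, that with the most reads in its shallowest library, and 1 exon per gene. The largest shared rise was an exon of H2AFY (chr5:134696187-134696297, GRCh37), which encodes the histone variant macroH2A1. The event of this exon left out a further exon of the gene. The coding exon that rose has 111 nucleotides, and its sequence stands above. Its level was 0.301 and 0.521 in the DMSO libraries of MCF10A and 0.896 and 0.977 with emetine, and in HMLE TWIST it was 0.159 and 0.0753 with DMSO and 0.905 and 0.799 with emetine. All emetine libraries lay above all DMSO libraries in both lines. The change was 0.525 in MCF10A (adjusted p = 7.46e-06) and 0.735 in HMLE TWIST (adjusted p = 9.00e-06).

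Decay targets among the shared rises included exons of SAE1, C11orf73 and HIATL2. SAE1 encodes a subunit of the enzyme that activates the SUMO modifier. Its exon (chr19:47683403-47683560) had levels of 0.193 and 0.207 with DMSO and 0.638 and 0.662 with emetine in MCF10A, and of 0.0689 and 0.0859 against 0.384 and 0.430 in HMLE TWIST. The groups did not overlap, and the exon rose by 0.450 and 0.330 (adjusted p = 1.21e-05 and 2.21e-06). C11orf73, also called Hikeshi, carries the heat shock protein Hsp70 into the nucleus. Its exon (chr11:86037555-86037718) went from 0.0737 and 0.106 to 0.470 and 0.542 in MCF10A, and in HMLE TWIST from 0.169 and 0.0380 to 0.606 and 0.481, so that a form present in few transcripts came to about even use (adjusted p = 5.53e-05 and 0.000587). The exon of HIATL2 rose from a mean of 0.300 to 0.735 in MCF10A, and in HMLE TWIST from 0.180 to 0.754, but HIATL2 has closely similar copies in the genome and the split of reads between them is uncertain. Smaller shared rises of decay targets were those of MINK1, a kinase, and of DIS3L2, a ribonuclease of RNA decay. The exon of MINK1 (chr17:4762508-4762623) was almost absent with DMSO, at 0.0184 and 0.0302 in MCF10A and 0.0151 and 0.00176 in HMLE TWIST, and reached 0.215 and 0.155, and 0.132 and 0.229, with emetine. That of DIS3L2 (chr2:233063237-233063486) rose from 0.0395 and 0.0372 to 0.295 and 0.232 in MCF10A, and from 0.0440 and 0.0349 to 0.194 and 0.169 in HMLE TWIST.

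Noncoding and untranslated exons rose in both lines in RP13-672B3.2, SUZ12P1, GATAD2A and ZNF107. The exon of the noncoding gene RP13-672B3.2 (chr12:133277836-133277955) was at 0.286 and 0.585 with DMSO and at 0.688 and 0.850 with emetine in MCF10A, and at 0.0973 and 0.0709 against 0.611 and 0.570 in HMLE TWIST. The MCF10A controls lay far apart, and the call there (adjusted p = 0.0385) was lost without DMSO replicate 1 (change of 0.184) and without either emetine replicate (0.415 and 0.252). SUZ12P1 is a pseudogene of the Polycomb gene SUZ12, so its reads may be shared with that gene. Its exon (chr17:29070319-29070387) rose from 0.634 and 0.661 to 1 and 0.944 in MCF10A, and in HMLE TWIST from 0.796 and 0.661 to 0.979 and 0.965, and the latter call was lost without DMSO replicate 2 (change of 0.175). GATAD2A encodes a subunit of the chromatin remodelling complex NuRD. Its untranslated exon (chr19:19546940-19547028) had no middle exon of another event in its introns. The level rose from 0.227 and 0.180 to 0.534 and 0.591 in MCF10A, and in HMLE TWIST from 0.150 and 0.123 to 0.368 and 0.352. The exon of the zinc finger gene ZNF107, one of a family with similar sequences, rose by 0.379 and 0.417.

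The largest shared falls were in coding exons. GPATCH8 encodes a protein with a G-patch, a fold that binds RNA helicases. Its exon of 73 nucleotides (chr17:42541840-42541912) was at 0.996 and 0.981 with DMSO and at 0.735 and 0.767 with emetine in MCF10A, and at 0.977 and 0.978 against 0.711 and 0.753 in HMLE TWIST. All controls lay near full inclusion and all treated libraries well below (adjusted p = 4.49e-07 and 1.24e-05). The exon of SRBD1 (chr2:45704132-45704214), shown above, fell from 1 and 0.981 to 0.749 and 0.775, and from 1 and 0.985 to 0.744 and 0.808. No middle exon of another event lay in its introns of 57098 and 11164 nucleotides. MEMO1 encodes a protein of cell motility downstream of receptor kinases, and its exon (chr2:32108455-32108531) fell from 0.982 and 0.958 to 0.777 and 0.786 and from 0.939 and 0.934 to 0.734 and 0.777. RAB28 encodes a small GTPase of membrane traffic. Its exon (chr4:13462323-13462452), with introns of 79104 and 13489 nucleotides, fell from 0.909 and 0.882 to 0.706 and 0.729 in MCF10A, and in HMLE TWIST from 0.927 and 0.927 to 0.676 and 0.604.

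The exons of CASC4 and WASF1 started lower and fell too. CASC4 encodes a membrane protein of the Golgi, and its exon of 168 nucleotides (chr15:44695085-44695252) went from 0.783 and 0.760 to 0.568 and 0.579 in MCF10A, and in HMLE TWIST from 0.558 and 0.562 to 0.349 and 0.310. WASF1 encodes a regulator of actin branching, and its untranslated exon (chr6:110481838-110481935) went from 0.402 and 0.413 to 0.194 and 0.203 and from 0.322 and 0.342 to 0.0765 and 0.124. ATP9B encodes a membrane ATPase of the lipid flippase family. Its exon (chr18:76936813-76936907) fell by 0.271 in MCF10A (adjusted p = 0.00369) and by 0.294 in HMLE TWIST (adjusted p = 0.00555), and the second call was lost without DMSO replicate 2 (change of -0.227). With limma the calls of ATP9B and CASC4 were lost in both lines, those of RP13-672B3.2, SUZ12P1 and WASF1 in MCF10A, and those of ZNF107 and PEX7 in HMLE TWIST.

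**Figure D4:**
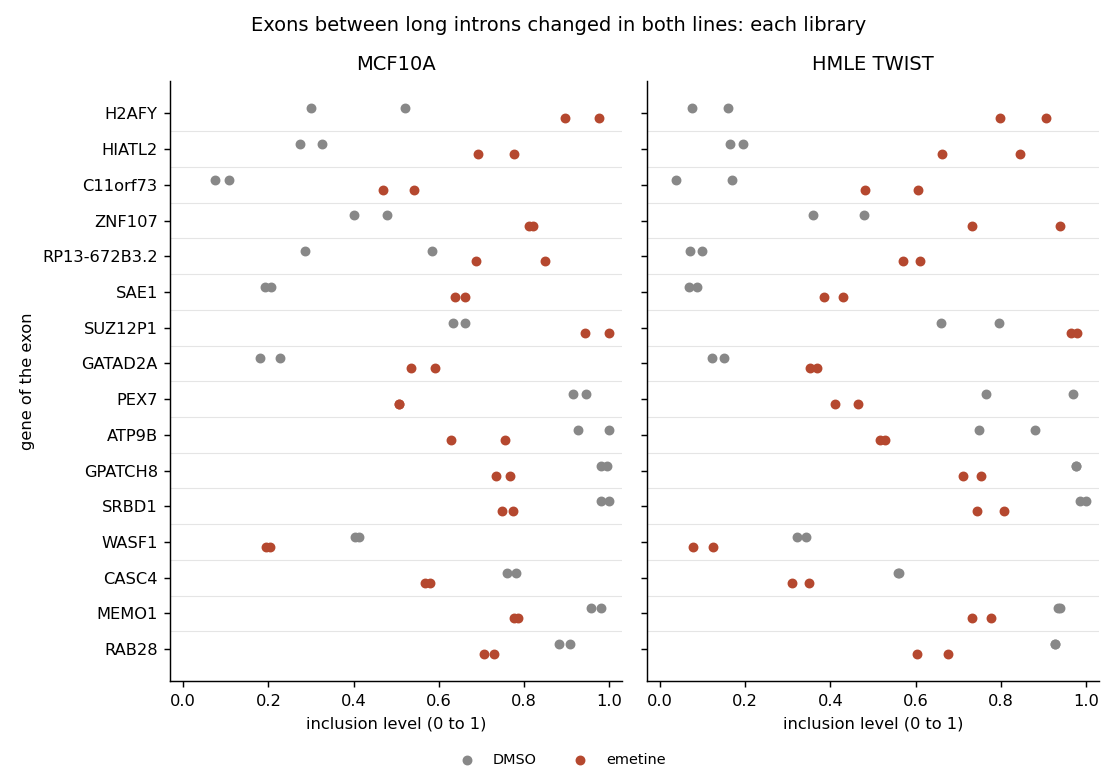
Inclusion level (horizontal axis, 0 to 1) in each library of the exons with the 8 largest shared rises (top) and the 8 largest shared falls (bottom), for MCF10A (left) and HMLE TWIST (right). Gray points are the 2 DMSO libraries and red points the 2 emetine libraries; in each exon and line the emetine points lie on 1 side of both DMSO points.

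The level of an exon depends on the neighbours that define the event. Exons with several events in the set could rise in one and fall in another, which was so for 5 exons in MCF10A and 3 in HMLE TWIST, of 20 exons with more than 1 changed event in each line. The same count was not made over all events, so it is not known whether this is particular to long introns. The exon of PEX7 (chr6:137166753-137166830), the receptor that brings a class of enzymes into peroxisomes, was among the largest falls. With a right intron of 20934 nucleotides its level was 0.946 and 0.916 with DMSO and 0.508 and 0.507 with emetine in MCF10A, and 0.765 and 0.970 against 0.411 and 0.464 in HMLE TWIST. With a right intron of 24197 nucleotides the same exon rose in MCF10A from 0.853 and 0.685 to 0.955 and 0.941 (adjusted p = 0.0328). DCAF6, which encodes a substrate receptor of a ubiquitin ligase, showed the same in both lines. It falls outside the rule for named exons and was chosen after its values were seen. Its exon of 60 nucleotides (chr1:167992226-167992285) fell with a right intron of 19977 nucleotides from 0.854 and 0.773 to 0.277 and 0.289 in MCF10A, and in HMLE TWIST from 0.610 and 0.870 to 0.206 and 0.313. With a right intron of 15323 nucleotides it rose from 0.231 and 0.249 to 0.520 and 0.542, and from 0.259 and 0.228 to 0.413 and 0.410. With limma the rises of PEX7 in MCF10A and of DCAF6 in HMLE TWIST, and the fall of PEX7 in HMLE TWIST, were not called (adjusted p = 0.0679, 0.112 and 0.0674). A fall or rise here is therefore a statement about the exon between 2 given neighbours.

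Among the changes called in MCF10A, the largest rise was an exon of MRPS6, a gene of the mitochondrial ribosome, from 0.161 and 0.0922 to 0.755 and 0.707 (chr21:35475134-35475207, adjusted p = 9.39e-06). This event was not analysed in HMLE TWIST. The exon of the antisense gene TMEM161B-AS1 rose by 0.482 (adjusted p = 1.74e-07), from 0.322 and 0.336 to 0.798 and 0.823. The libraries are stranded, but it is not given in the sources used here whether the counting used strand, so reads of the antisense gene and its partner may not be told apart. Further rises from 0.354 to 0.439 were those of EVA1C, SIMC1, RANBP17, RBM6 and SFI1. RBM6 encodes an RNA-binding splicing regulator, and its exon went from 0.0989 and 0.0921 to 0.494 and 0.414, with a change of 0.123 in HMLE TWIST that was called but lost without emetine replicate 1 (0.0666) and with limma (adjusted p = 0.132).

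The largest fall in MCF10A was that of USP25, a deubiquitinating enzyme, from 0.951 and 0.799 to 0.352 and 0.260 (chr21:17222096-17222191, adjusted p = 0.000398). The exon of RTN4, a reticulon that shapes the endoplasmic reticulum, was fully included in both DMSO libraries (1 and 1) and fell to 0.634 and 0.687. In HMLE TWIST its level was 1 and 1 with DMSO and 1 and 0.949 with emetine, and it was not tested there. TCF7L2 encodes a transcription factor of Wnt signalling, and its exon (chr10:114724315-114724383) fell from 0.405 and 0.435 to 0.133 and 0.155 (adjusted p = 3.17e-06). In untreated HMLE TWIST that exon stood at 0.160 and 0.156 and with emetine at 0.0899 and 0.116, and the difference of response had an adjusted p of 0.0784. The falls of AKAP7, RGL1, ST7L, ARHGAP32, RANBP10, INTS4 and LCORL lay between -0.328 and -0.245. Without a single library the MCF10A calls were lost for AKAP7 (without emetine replicate 1, -0.229), ST7L (without DMSO replicate 1, -0.248), RTN4 (without DMSO replicate 1, -0.340) and SFI1 (without emetine replicate 2, 0.237). RTN4 could not be tested without either emetine replicate, nor INTS4 without emetine replicate 2, since too few reads of the rarer form were left. The call of LCORL was lost without DMSO replicate 2 (-0.195) or emetine replicate 2 (-0.225), and that of RGL1 without DMSO replicate 2 (-0.318) or either emetine replicate (-0.343 and -0.300). With limma the calls of SFI1, ST7L and LCORL were lost (adjusted p = 0.0528, 0.0692 and 0.0836).

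In HMLE TWIST noncoding genes stood among the largest rises. The exon of SVIL-AS1 went from 0.310 and 0.324 to 1 and 0.889, that of LINC01128 from 0.203 and 0.150 to 0.640 and 0.774, and that of MIR4435-2HG from 0.449 and 0.276 to 0.857 and 0.802. Each emetine library lay above each control (adjusted p = 0.000591, 0.000218 and 0.000520). A noncoding exon of PLGRKT, which encodes a receptor for plasminogen, rose by 0.530, and an exon of PVT1, a noncoding gene, by 0.417. Coding and untranslated exons rose in IKBIP, IKBKB and STXBP6. The exon of IKBKB, the kinase that starts NF-kappaB signalling, went from 0.394 and 0.346 to 0.870 and 0.738 (change of 0.434, and lost without DMSO replicate 2 at 0.410). The untranslated exon of STXBP6, a regulator of membrane fusion, went from 0.127 and 0.115 to 0.651 and 0.487 (adjusted p = 8.02e-06).

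Further large falls in HMLE TWIST by the same rule were those of ABCA11P (-0.430), TET2 (-0.392), SFXN5 (-0.390), SPOP (-0.385), METTL8 (-0.349) and PBX3 (-0.342). TET2 encodes an enzyme that oxidises methylated cytosine, and its exon went from 0.895 and 0.800 to 0.535 and 0.376 (adjusted p = 0.00630), with a change of -0.210 in MCF10A that was not called. PBX3 encodes a homeobox transcription factor. Its coding exon (chr9:128677965-128678206) lies behind an intron of 167062 nucleotides and went from 0.817 and 0.815 to 0.508 and 0.439 (adjusted p = 9.38e-05). SPOP is a substrate receptor of a ubiquitin ligase, and its untranslated exon went from 0.429 and 0.597 to 0.0754 and 0.181. Several of these exons were shallow, with 21 reads in the shallowest library for ABCA11P and SFXN5 and 26 for METTL8. ABCA11P is a pseudogene, with reads that may belong to its relatives. The calls were lost for ABCA11P without emetine replicate 1 (-0.316), for TET2 without DMSO replicate 1 (-0.344) and for HACE1, a further fall of -0.276, without DMSO replicate 1 (-0.183) or emetine replicate 1 (-0.253). For SFXN5 it was lost without DMSO replicate 2 (-0.262) or either emetine replicate (-0.369 and -0.411), and for METTL8 without DMSO replicate 1 (-0.207) or either emetine replicate (-0.385 and -0.312). With limma the calls of SFXN5, METTL8 and HACE1 were lost (adjusted p = 0.0988, 0.0976 and 0.130).

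Lists of genes by function were read for their events between long introns, as counts beside the shares of all events given above. Transcription and chromatin genes had 9 rises and 4 falls of 136 events tested in MCF10A and 7 rises and 5 falls of 131 in HMLE TWIST. Of the 88 tested in both lines, 3 rose and 1 fell in both, with exons of H2AFY and ZNF107 as above. The exon of ZMYND11, a reader of methylated histones, rose by 0.111 and 0.151, and that of MEIS2, a homeobox factor, changed by -0.113 and -0.132. Without the length correction ZMYND11 moved by 0.0677 and 0.0926 and MEIS2 by -0.0683 and -0.0803, which ended these calls. In MCF10A the call of ZMYND11 was also lost without DMSO replicate 2 (0.0957) or emetine replicate 2 (0.101), and that of MEIS2 without either DMSO replicate (-0.112 and -0.113) or emetine replicate 2 (-0.135). With limma the call of ZMYND11 was lost in both lines (adjusted p = 0.129 and 0.0633).

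RNA binding and decay genes had 5 rises and 2 falls of 62 events in MCF10A and 4 rises and 1 fall of 63 in HMLE TWIST, and 3 events rose in both lines. Kinases and phosphatases had 6 rises and 0 falls of 100 events in MCF10A, and 7 rises and 7 falls of 121 in HMLE TWIST. In both lines 3 rose, in MINK1, in PPP6R3, a regulatory subunit of protein phosphatase 6, and in PTK2, the focal adhesion kinase. GTPase regulators had 6 rises and 6 falls of 69 in MCF10A and 2 rises and 3 falls of 71 in HMLE TWIST. The shared changes were falls in TBC1D5 and TBC1D22A, which act on Rab proteins. TBC1D5 (chr3:17469942-17470011) went from 0.971 and 0.979 to 0.844 and 0.784, and from 0.947 and 0.961 to 0.704 and 0.685. TBC1D22A changed by -0.117 and -0.218, and its MCF10A call was lost without emetine replicate 1 (-0.0946) and without the length correction (-0.0634). With limma the calls of PPP6R3 (adjusted p = 0.124 and 0.129) and PTK2 (0.0954 and 0.231) were lost in both lines.

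Adhesion and cytoskeleton genes had 2 rises and 5 falls of 57 events in MCF10A and 2 rises and 2 falls of 69 in HMLE TWIST. PARD3, a scaffold of cell polarity, fell in both lines, from 0.742 and 0.773 to 0.581 and 0.600 and from 0.765 and 0.778 to 0.479 and 0.556, and DLG1, a scaffold of cell junctions, rose by 0.190 and 0.129. The calls of DLG1 were lost without either emetine replicate of MCF10A (0.194 and 0.186), and without DMSO replicate 2 (0.114) or emetine replicate 1 (0.101) of HMLE TWIST. That of PARD3 in MCF10A was lost without DMSO replicate 2 (-0.152). With limma the calls of PARD3 (adjusted p = 0.115 and 0.0533) and DLG1 (0.160 and 0.243) were lost in both lines. Membrane traffic genes had 1 rise and 2 falls of 72 and 3 rises and 5 falls of 82. The ubiquitin system had 0 rises and 3 falls of 99 in MCF10A and 2 rises and 4 falls of 96 in HMLE TWIST, with 0 of 73 changed in both lines.

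The response to emetine differed between the lines for 15 of 2249 events between long introns by the quasi-binomial test of the line by treatment term (0.667%, against 1.69% of all 31825 events). In 5 of them the change was more positive in HMLE TWIST and in 10 more negative, and in 12 the signs were opposite. Over all events 174 were more positive and 365 more negative in HMLE TWIST, with opposite signs in 295 of the 539. An unadjusted p under 0.05 was found for 238 events. With limma 0 events passed, here and among all 31825 events, with 222 events between long introns at an unadjusted p under 0.05. The quasi-binomial count fell to 3 to 11 when a library was left out. It was 3 without MCF10A emetine replicate 1 and 5 without MCF10A emetine replicate 2. It was 7 without HMLE TWIST DMSO replicate 1, 9 without DMSO replicate 2, 5 without emetine replicate 1 and 8 without emetine replicate 2.

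The largest difference was in HCG18, a noncoding RNA gene (chr6:30282046-30282259). Its exon stood at 0.933 and 0.784 with DMSO and at 0.792 and 0.778 with emetine in MCF10A, and rose from 0.600 and 0.524 to 0.983 and 0.930 in HMLE TWIST. The changes differed by 0.468 (adjusted p = 0.00667). The noncoding exon of PCNX (chr14:71462458-71462560) rose in MCF10A from 0.0488 and 0.0645 to 0.338 and 0.384, and was at 0.0654 and 0.0864 with DMSO and 0.0145 and 0.0847 with emetine in HMLE TWIST (adjusted p of the difference = 0.0177). LIMK2 encodes a kinase that controls actin through cofilin. Its coding exon (chr22:31621706-31621805) fell in HMLE TWIST from 0.893 and 0.864 to 0.665 and 0.665, a call lost without either DMSO replicate (-0.199 and -0.228). In MCF10A it was at 0.861 and 0.680 with DMSO and 0.841 and 0.890 with emetine (adjusted p of the difference = 0.0138). IKBIP encodes a partner of the kinase IKBKB, and its exon (chr12:99028074-99028191) rose in both lines, by 0.197 in MCF10A and by 0.452 in HMLE TWIST (adjusted p of the difference = 0.0110). The MCF10A call of IKBIP was lost without emetine replicate 1 (0.168) and with limma (adjusted p = 0.120).

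The exons of PTK2 and PINX1, an inhibitor of telomerase, are decay targets and had changes of opposite sign in the lines. That of PTK2 (chr8:141958765-141958822) went from 0.2 and 0.188 to 0.284 and 0.300 in MCF10A, and in HMLE TWIST from 0.325 and 0.282 to 0.152 and 0.182. The exon of PINX1 (chr8:10645134-10645335) went from 0 and 0.0303 to 0.168 and 0.161, and from 0.0556 and 0.0980 to 0.0150 and 0.0150. The differences were -0.235 and -0.211 (adjusted p = 0.00126 and 0.00493). The change of 0.0983 for PTK2 in MCF10A and that of -0.0618 for PINX1 in HMLE TWIST were too small to be called. A second exon of PTK2 (chr8:141935661-141935848) rose in both lines, by 0.161 and 0.113, so exons of that gene differed in their response. The HMLE TWIST calls of both PTK2 exons were lost without single libraries. That of the first was lost without DMSO replicate 1 (-0.115) or emetine replicate 1 (-0.121), and that of the second without DMSO replicate 2 (0.0867) or either emetine replicate (0.132 and 0.0949). Both were lost with limma too (adjusted p = 0.123 and 0.231). The MCF10A call of PINX1 was lost without DMSO replicate 1 (0.135).

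With DMSO alone the lines had similar median levels. Over the 3511 events with enough reads in both, the median was 0.990 in MCF10A and 0.987 in HMLE TWIST. By the quasi-binomial test 65 of 1408 events differed (4.62%, against 6.64% of all 19301 events), 14 higher and 51 lower in HMLE TWIST. Over all events 420 were higher and 861 lower. With limma 0 of the events between long introns differed, against 36 of all 19301 events. An unadjusted p under 0.05 was found for 237 events between long introns by limma and 287 by the quasi-binomial test. Without HMLE TWIST DMSO replicate 2 the quasi-binomial count was 43. The largest difference upward was the coding exon of PAM, an enzyme that amidates peptide hormones (chr5:102309820-102310140). It stood at 0.369 and 0.325 in MCF10A and at 0.724 and 0.775 in HMLE TWIST. The adjusted p of this difference was 1.81e-53 by the quasi-binomial test and 0.103 by limma. The exon changed with emetine by -0.143 and -0.226 (limma adjusted p = 0.131 and 0.0713, which ends both calls). SUGCT, a mitochondrial enzyme gene, had 0.504 and 0.489 against 0.877 and 0.820, and emetine moved it by -0.0208 and -0.0220, neither of them called. DGUOK, a mitochondrial kinase of nucleosides, had 0.279 and 0.239 against 0.606 and 0.506. Exons of PVT1, CCSER2 and COA1 were higher in HMLE TWIST by 0.175 to 0.246.

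Lower in HMLE TWIST were exons of MIR4435-2HG, NUMA1, CHD6, RP13-672B3.2, NFIB and HCG18. NUMA1 encodes a protein of the mitotic spindle, and its untranslated exon stood at 0.694 and 0.690 in MCF10A and at 0.373 and 0.258 in HMLE TWIST. NFIB encodes a transcription factor. Its coding exon (chr9:14102421-14102509) stood at 0.484 and 0.369 against 0.135 and 0.103 (adjusted p = 6.73e-11). CHD6, a chromatin remodeller, had 0.839 and 0.918 against 0.583 and 0.441. Emetine raised this exon in HMLE TWIST to 0.879 and 0.792, a call lost without emetine replicate 1 (0.279), and it stood at 0.953 and 0.873 in MCF10A with emetine. The exon of NFIB also had an event with the right intron of 10488 nucleotides, chosen after its values were seen, in which its level fell in MCF10A from 0.871 and 0.765 to 0.599 and 0.599, a call lost with limma (adjusted p = 0.0909).

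**Figure D5:**
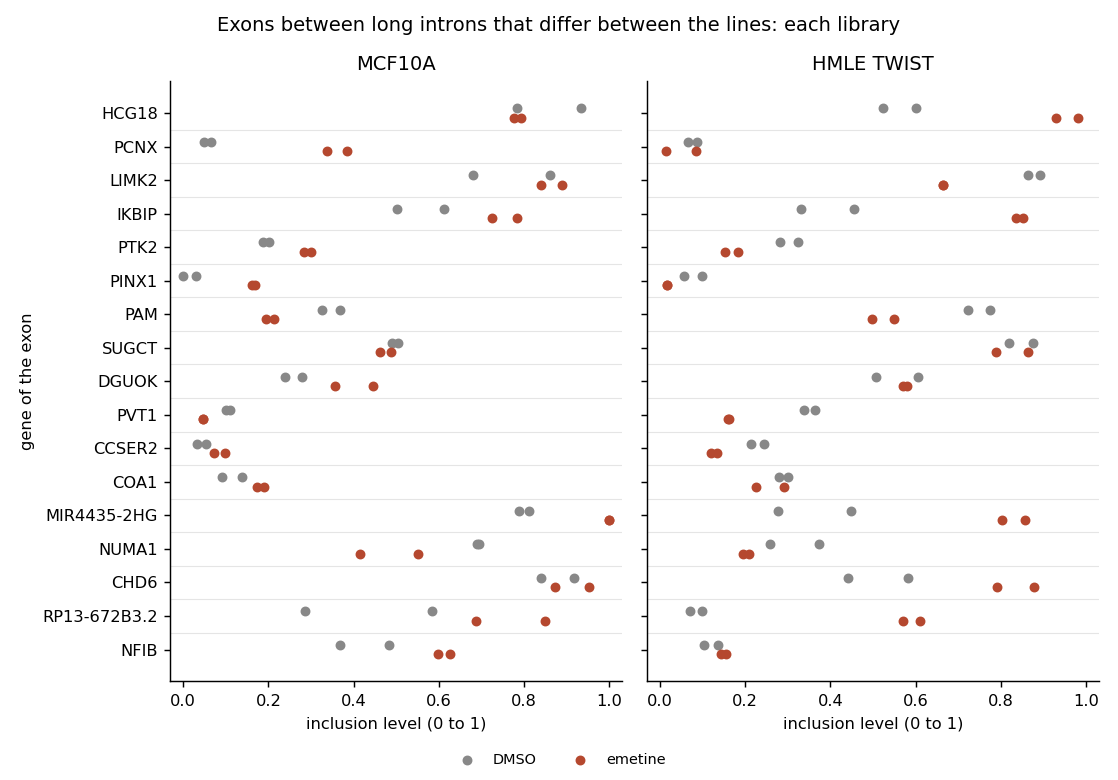
Inclusion level (horizontal axis, 0 to 1) in each library of the exons with the 6 largest differences of response between the lines (top 6) and the largest differences between the untreated lines, for MCF10A (left) and HMLE TWIST (right). Gray points are the 2 DMSO and red points the 2 emetine libraries; the emetine points of PCNX lie right of both DMSO points in MCF10A, and PAM and SUGCT lie higher in all 4 HMLE TWIST libraries than in any MCF10A library.

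The letters GGG were searched in the exons, on the transcript strand and, as CCC, on the other strand, where a longer run counts once per exon. In MCF10A 58.0% of the 1654 tested exons between long introns with a sequence held GGG, against 66.2% of all 20740 tested exons in the same range of length. It was 55.2% of the 116 that rose and 64.1% of the 64 that fell. In HMLE TWIST 59.2% of 1748 held it, against 68.1% of 24123, with 59.2% of the 98 that rose and 61.1% of the 95 that fell. CCC was in 60.5% and 62.0% of the tested exons between long introns, against 66.7% and 68.7% of all tested exons. In MCF10A it was in 65.5% of those that rose and 46.9% of those that fell. In HMLE TWIST these shares were 66.3% and 50.5%. Under 100 nucleotides the shares with GGG were 40% between long introns and 49.3% over all tested exons in MCF10A, and from 100 to under 200 they were 68.2% and 75.7%. From 200 nucleotides on they were 92% and 91.7%. The median GC content was 45.3% and 45.8% between long introns, against 48.6% and 50% over all tested exons. Within the set it was 46.7% for the rises and 45.1% for the falls in MCF10A. In HMLE TWIST it was 48.0% and 45.8%. The exons between long introns that were not called had a GC content of 45.1% and 45.7%, close to that of the falls. Of these exons 57.9% and 59.0% held GGG. The falls had a lower GC content than the rises and a higher share with GGG, and were shorter. Their median lengths were 93.5 against 111.5 nucleotides in MCF10A and 98 against 115 in HMLE TWIST. These differences were not tested.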

How the data were processed

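Skipped-exon events were taken from 2 deposited tables in the format of rMATS, 1 per line, made from stranded paired-end polyA libraries. STAR 2.5.3a and GRCh37 are named per the submitters' processing notes. The rMATS version and annotation release are not given in the sources used here. The tables hold junction counts per library, the authors' deposited p-value and false discovery rate, and a deposited difference score of inclusion, which was recomputed to within 0.00142. DMSO was taken as sample 1 of each table and emetine as sample 2, because the tables' names put them that way round.

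Levels are counts over effective length, per form. Counts were fitted per event with a quasi-binomial logistic model in R 4.3.3, with dispersions moderated by limma 3.58.1 and floored at 1. All p-values are two-sided and adjusted by Benjamini-Hochberg over all events of the fit. The median dispersion was 1.67 in MCF10A and 1.54 in HMLE TWIST. It was 1.55 in the fit of the response differences and 1.925 in that of the untreated lines. Moderation pulls the spread of each event toward a value shared over events. That value had a weight of 15.28, 10.27, 30 and 599.4 degrees of freedom in these 4 fits, in the same order. limma on log2 odds (0.5 added to each count) was an alternative.

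Named exons are the 12 largest rises and falls per line, the 8 largest shared ones in each direction, the 6 largest differences of response and the 6 largest untreated differences in each direction, and up to 4 shared changes per gene list, with 1 event per exon and 1 exon per gene. An exon that the rule names is not reported here. The members and lists were chosen with earlier results of these data known. Intron and splice site sequences, which need a genome of the files' build, were not used here. The values in a cell carry no replicate number.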

Additional observations from a re-analysis of the deposited data

Results flagged for a closer look

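The following exons between long introns changed differently with emetine in the 2 lines, by the quasi-binomial test of the line by treatment term. The change in HMLE TWIST minus that in MCF10A was 0.468 for HCG18, 0.255 for IKBIP, -0.33 for PCNX, -0.308 for LIMK2, -0.235 for PTK2, -0.211 for PINX1 and -0.146 for CCSER2. In CCSER2 (chr10:86259631-86259715) the level went from 0.0311 and 0.0532 to 0.0717 and 0.0970 in MCF10A, which was not called. In HMLE TWIST it went from 0.215 and 0.245 to 0.119 and 0.134, a call lost without DMSO replicate 2 (-0.0880) or emetine replicate 1 (-0.0959) and with limma (adjusted p = 0.135). With limma none of these differences passed (adjusted p from 0.197 to 0.377).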

How the results depend on the processing

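Main counts are 201 (MCF10A), 216 (HMLE TWIST), 81 (both lines), 15 (response differs) and 65 (untreated lines), given below in that order. With limma they were 102, 122, 36, 0 and 0, and with a change of at least 0.2 they were 78, 85, 16, 6 and 28. With introns of 5000 or more they were 470, 500, 201, 42 and 159, and with 20000 or more 67, 72, 26, 5 and 19. Without events that leave out a further exon, an alternative chosen after seeing the data, they were 72, 77, 28, 8 and 21. The positions in a cell share only a number (correlation of deviations 0.0326 in MCF10A and 0.0266 in HMLE TWIST). With them as a replicate block the counts were 152, 139, 55, 0 and 72. Leaving out 1 library gave 144 to 173, 159 to 204, 57 to 80, 3 to 11 and 43 to 53. The cause of these shifts was not tested. The read minimums, the dispersion setting, 1 event per exon and, for the counts of single lines, the authors' deposited FDR kept each count within 1.5 times. The median change was -0.00101 and -0.000912 without the length correction, and -0.00254 in HMLE TWIST with introns of 20000 or more. Without single libraries it ranged from -0.00235 to 0 (MCF10A), with HMLE TWIST at -0.00253 to 0. Of 105 calls of named exons 38 were lost with limma, 8 without the length correction and 38 without at least 1 library, and 0 reversed. Calls that could not be tested without a library, such as that of RTN4 without either emetine replicate, have no result for that library.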
